A study of Mus musculus with 6 samples.

Results

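The cytosolic ribosomal protein genes are the genes for the structural proteins of the ribosome that translates nuclear messages. They were chosen by symbol, as Rpl, Rps or Rplp followed by a number and an optional paralog letter, and 86 of the 16533 genes listed in the count tables met this rule. Of these, 52 belong to the large (60S) subunit and 34 to the small (40S) subunit, and 5 (Rpl32l, Rps3a2, Rps3a3, Rpl6l and Rps4l) are annotated as pseudogenes. All 86 had enough counts to be tested. The symbol rule leaves out some genes whose products are also ribosomal, among them Rpsa, Fau and Rack1.

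RNA was sequenced from the ligated inferior vena cava (IVC) of mice with its thrombus, 24 h after surgery, in a model of deep vein thrombosis (DVT). All mice carried floxed Sting alleles. The 3 control libraries came from Stingf/f mice without Cre and the 3 mKO libraries from Stingf/f Lyzm-Cre+/- mice, in which Cre is driven from the lysozyme M gene, Lyz2, that is active in myeloid cells. Each library pooled 3 thrombi, so a pool is the unit of replication, and the labels give neither age nor sex. The contrast asks what loss of Sting in myeloid cells changes in the thrombosed vein. Every mKO library also carries Lyzm-Cre and no control does, so effects of Cre itself cannot be told apart from loss of Sting.

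Each ribosome holds 1 copy of nearly every ribosomal protein, and the genes are transcribed in near balance. Their messages are short, abundant and stable, and most begin with a 5' terminal oligopyrimidine (TOP) tract, through which mTORC1 and LARP1 control their translation. Mature red cells retain little of these messages. Which other cells of the thrombus and vein wall they came from was not measured here.

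Total counts were 158579864 to 180068483 per library, and between 21.2% and 27.1% of them fell on haemoglobin genes. Sting1, the targeted gene, was at 25.1, 31.4 and 27.1 CPM (counts scaled to the library total) in control libraries 1 to 3 and at 22.7, 21.4 and 28.7 CPM in mKO libraries 1 to 3. The groups overlapped (log2 fold change -0.20, SE 0.14, edgeR adjusted p = 0.579). These counts are summed per gene over all cell types present, so they check the deletion in myeloid cells only weakly. Lyz2, which carries the Cre insertion, was at 1430, 1759 and 1885 CPM in controls and 643, 1149 and 1153 CPM in mKO libraries, without overlap. It had a log2 fold change of -0.78 (SE 0.26, edgeR adjusted p = 0.333). In bulk tissue, fewer cells of a type and less RNA per cell cannot be told apart. For Lyz2, an effect of the Cre insertion on the gene itself cannot be told apart from them either. Of 15 monocyte and macrophage markers, Lyz2 included, 12 had a fold change above 0 and 3 below. Over all 16523 genes tested, 7576 lay above 0 and 8947 below. No marker of this list passed an adjusted p of 0.05 in edgeR. In DESeq2, Spp1 and Cd68 did, both higher in mKO. For 3 of the 15 every mKO library exceeded every control, and for Lyz2 alone the reverse held. Of 15 neutrophil markers, 10 lay above 0 and 5 below, and only Mmp9 passed in DESeq2, higher in mKO.

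The annotated starts of the members were searched for such a tract. Of the 62 members in the RefSeq promoter table (GRCm38.p6), 32 (51.6%) had a run of at least 7 C or T bases on the sense strand touching the stretch from 5 bases before to 10 bases after the start, against 19.8% of 11578 other genes. For this run and the letters searched below, a gene counted when any of its annotated starts had them. More starts thus gave more chances. The windows below, with the C or T run in capitals, are for the annotated start with the longest run. They reach from 10 bases before to 20 bases after it, 5' to 3'. They are shown for some of the members whose values are described below, and mostly for ones with a run. Rplp0 and Rps4x, also described below, had no run of 7 and are not shown. Rpl22 and Rpl3l stand last because no run of 7 was found in them.
Rps6: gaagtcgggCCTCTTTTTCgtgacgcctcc
Rpl27a: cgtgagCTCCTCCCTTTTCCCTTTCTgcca
Rps18: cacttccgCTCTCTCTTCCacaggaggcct
Rps27: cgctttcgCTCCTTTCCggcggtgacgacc
Rpl22l1: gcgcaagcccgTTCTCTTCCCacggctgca
Rpl22: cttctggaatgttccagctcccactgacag
Rpl3l: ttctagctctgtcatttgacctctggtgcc
In GRCm38.p6 the Rps6 window lies at chr4:86857348-86857377 on the minus strand and the Rpl27a window at chr7:109519185-109519214 on the plus strand. The Rps18 window is at chr17:33955646-33955675 on the minus strand and the Rps27 window at chr3:90213629-90213658 on the minus strand. On the plus strand, Rpl22l1 is at chr3:28805498-28805527, Rpl22 at chr4:152324426-152324455 and Rpl3l at chr17:24727816-24727845. Each window spans the annotated transcription start, with upstream bases first and the 5' end of the first exon after it. The run was 20 bases long in Rpl27a, 11 in Rps18, 10 in Rps6 and in Rpl22l1, and 9 in Rps27. Annotated starts can differ from the starts used in this tissue, and a missing run says only that these letters are not in the window. The letters CCGGAAG, the core of ETS-family sites, were found on either strand of the 300-base promoter window in 24 of 62 members (38.7%) and 18.0% of other genes. TATAAA was found in 8 members (12.9%) and 9.76% of other genes.

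Together the 86 genes took 1.59% to 2.21% of all counts in a library. The most abundant by mean CPM included Rplp0 at 688, Rpl41 at 642, Rps2 at 621, Rps9 at 581 and Rpl4 at 494, with Rpl10, Rps6, Rps24 and Rps3a1 below them. Among the 79 members at 20 CPM or more, the level per kilobase of annotated message had a median of 275 CPM per kb. Per kilobase the highest were Rpl41 at 1261, Rps24 at 908, Rplp1 at 803, Rps9 at 774 and Rps27 at 744 CPM per kb. Rpl41 encodes a peptide of the large subunit that is among the shortest of all ribosomal proteins. The lowest of the 79 was Rps20 at 30.7 CPM per kb, whose annotated message of 3706 bases is far longer than those of the other members, so that this value depends on the annotation. The remaining 7 members were at 25.4 CPM per kb or less. They were the paralogs Rpl22l1 and Rpl3l and the 5 members annotated as pseudogenes.

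No difference between genotypes was detected in the ribosomal protein genes. Their summed level was 17851, 20802 and 19265 CPM in controls 1 to 3 and 21363, 17379 and 17609 CPM in mKO 1 to 3. The groups overlapped, with the highest and the lowest library both in the mKO group, and the means were 19306 ± 1475 CPM (SD, n = 3) and 18784 ± 2237 CPM (SD, n = 3), a log2 difference of -0.04. The ratio of the large-subunit sum to the small-subunit sum lay between 1.504 and 1.534 in all 6 libraries. The large-subunit sum changed by -0.05 and the small-subunit sum by -0.04 on the log2 scale.

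None of the 86 members passed an adjusted p of 0.05 in edgeR's quasi-likelihood test, where 0% of the 16523 genes tested did, nor in DESeq2, where 2.79% of all genes did, nor in limma voom, where none did. At an unadjusted p of 0.05 in edgeR, 1 of 86 members passed, against 11.9% of all genes. The 3 libraries of one genotype lay wholly above those of the other for 1 of 86 members, against 18.2% of all genes. Fold changes were below 0 for 63 members and above 0 for 23, with a median of -0.05 over the members and -0.03 over all genes tested. The median over the members was 0.02 without control 2, 0.01 without mKO 2 and -0.14 without mKO 1, so its sign rested on single libraries. From the 5th to the 95th percentile, members spanned -0.18 to 0.12 and all genes -0.68 to 0.49.

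The precision of these estimates bounds a change. The median SE was 0.15 on the log2 scale, and the 95% interval of the log2 fold change lay within -0.5 to 0.5 for 73 of 86 members and within -1 to 1 for 84. The exceptions to the wider bound were Rpl17 and Rpl3l, described below. Of 15 erythroid marker genes tested, 14 had a fold change above 0 and none passed an adjusted p of 0.05 in edgeR. In DESeq2, 7 of the 15 passed that threshold, all higher in mKO, against 2.79% of all genes. The groups did not overlap for 8 of the 15, all higher in mKO, against 8.76% of all genes. The summed levels of the 15 overlapped, at 201140 to 259280 CPM in controls and 239210 to 285290 CPM in mKO. The part of this in the ribosomal protein values was not tested.

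**Figure D1:**
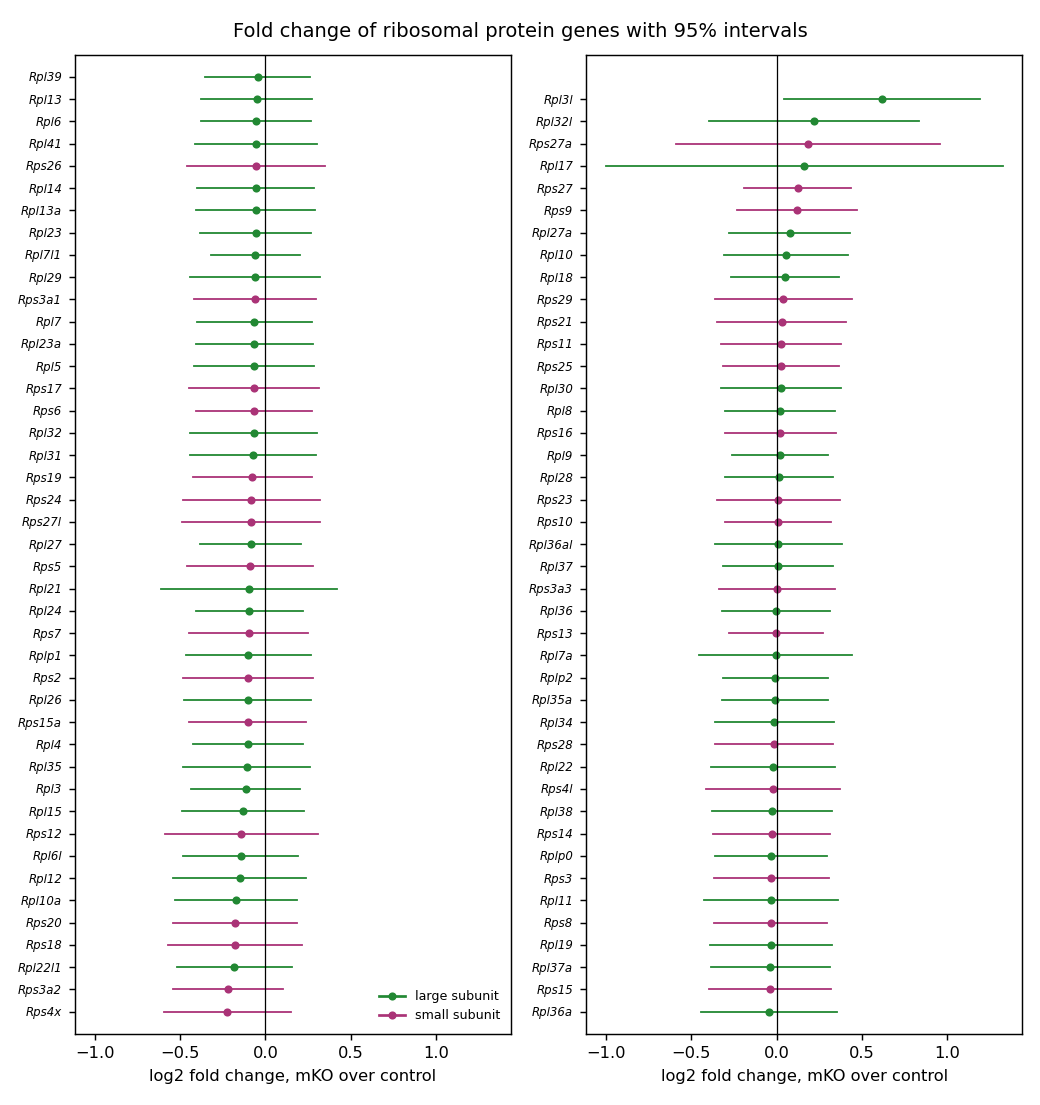
Log2 fold change, mKO over control, of the ribosomal protein genes reported (point) with its 95% interval from edgeR (line), ordered by fold change from the bottom left to the top right; green marks large-subunit and purple small-subunit genes. The interval of Rpl3l alone lies wholly on one side of 0, and Rpl17 has the widest interval.

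The P stalk recruits the translational GTPases to the ribosome. Its base protein gene Rplp0 was at 678, 696 and 713 CPM in controls and 738, 679 and 626 CPM in mKO libraries (log2 fold change -0.03, SE 0.14, edgeR adjusted p = 0.938). Rplp1, which encodes a stalk protein, was at 381, 451 and 411 CPM in controls and 444, 342 and 375 CPM in mKO libraries (-0.10, SE 0.16). Its partner Rplp2 was at 167, 184 and 182 CPM in controls and 195, 159 and 177 CPM in mKO libraries (-0.01, SE 0.13). The groups overlapped for all 3 genes, and mKO 1 was the highest library for Rplp0 and Rplp2.

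Among small-subunit genes, Rps6 encodes the protein phosphorylated by S6 kinases downstream of mTORC1. It was at 421, 487 and 445 CPM in controls and 479, 412 and 400.4 CPM in mKO libraries (-0.07, SE 0.15). Rps4x had the most negative fold change of all members, from 264, 315 and 286 CPM in controls and 292, 233 and 217 CPM in mKO libraries (-0.22, SE 0.16, edgeR adjusted p = 0.579). In Rps4x the mKO 1 library lay above 2 of the 3 controls, while mKO 2 and mKO 3 lay below all of them. Rps18, a protein of the 40S head, was at 152, 181 and 154 CPM in controls and 174, 123 and 133 CPM in mKO libraries (-0.18, SE 0.17, edgeR adjusted p = 0.657). Rps27, a zinc-finger protein of the 40S, had a positive estimate, from 234, 239 and 230.2 CPM in controls and 267, 274 and 225 CPM in mKO libraries (0.12, SE 0.13, edgeR adjusted p = 0.699). Here mKO 3 lay below every control and the other mKO libraries above. Rps9 was at 595, 501 and 576 CPM in controls and 634, 637 and 546 CPM in mKO libraries (0.12, SE 0.15).

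Among large-subunit genes, Rpl10a, a protein of the L1 stalk, was at 158, 195 and 177 CPM in controls and 182, 140.2 and 148 CPM in mKO libraries (-0.17, SE 0.15, edgeR adjusted p = 0.642). Rpl5 and Rpl11 form, with 5S rRNA, the particle that can bind and inhibit Mdm2. The log2 fold change of Rpl5 was -0.07 (SE 0.15), and that of Rpl11 -0.03 (SE 0.17). Rpl12, next to the P stalk, was at -0.15 (SE 0.17), and Rpl10, which is added late in 60S maturation, at 0.06 (SE 0.16). In GENCODE M21, 9 members share exonic bases with a gene on the opposite strand. Among them are Rpl5, with the most shared bases (953), Rpl18 (373) and Rpl12 (53). The sources used here do not state whether the counting used strand, so reads of these genes may include their partners'. The other members with the smallest p were Rps20 at -0.18 (SE 0.16) and the pseudogene Rpl6l at -0.15 (SE 0.15) on the lower side. On the higher side they were Rpl32l at 0.22 (SE 0.26), Rpl27a at 0.08 (SE 0.15) and Rpl18 at 0.05 (SE 0.14), all with groups that overlapped.

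Rpl3l, the muscle paralog of Rpl3, was the member that stood apart at an unadjusted p. It was at 0.523, 0.499 and 0.652 CPM in controls and 0.780, 0.825 and 0.966 CPM in mKO libraries, from 96, 91 and 101 counts and 135, 126 and 165 counts. Every mKO library lay above every control, a pattern that 8.76% of all genes shared. Rpl3l had a log2 fold change of 0.62 (SE 0.25, edgeR adjusted p = 0.393). In striated muscle Rpl3l replaces Rpl3 in part of the ribosomes. Of 12 skeletal muscle markers 10 were tested, none passed an adjusted p of 0.05 in edgeR, at an unadjusted p of 0.05 or in DESeq2, and their summed levels were 9.51, 10.9 and 69.8 CPM in controls and 36.8, 9.69 and 231 CPM in mKO libraries. The part of muscle tissue in the Rpl3l values was not tested.

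Paralogs were compared with their classical gene within each library, which needs no scaling between libraries. Both genes of 6 pairs had counts, and each pair was tested with an exact two-sided permutation test, in which 3 libraries against 3 cannot give a p below 0.1. Rpl22l1, the paralog of the RNA-binding protein gene Rpl22, stood at 12.9%, 12.7% and 12.7% of the Rpl22 level in controls and at 11.5%, 11.6% and 11.2% in mKO libraries. The spread within each group was small and the groups did not overlap: the log2 ratio was -2.97 ± 0.01 (SD, n = 3) in controls and -3.13 ± 0.03 (SD, n = 3) in mKO libraries. The difference was -0.16 (exact p = 0.1, Benjamini-Hochberg adjusted p over the 6 pairs 0.3) and ranged from -0.17 to -0.15 when each library was left out in turn. Behind it, Rpl22l1 was at 12.7, 16.1 and 13.8 CPM in controls and 14.5, 10.9 and 12.1 CPM in mKO libraries, and neither it (-0.18, SE 0.14, edgeR adjusted p = 0.605) nor Rpl22 (-0.02, SE 0.16) passed the test alone.

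For Rpl3l over Rpl3 the ratio was 0.255%, 0.221% and 0.305% in controls and 0.347%, 0.436% and 0.534% in mKO libraries without overlap, a log2 difference of 0.74 that did not pass (exact p = 0.1, adjusted p = 0.3) and was 0.59 to 0.90 with each library left out. The other 4 pairs overlapped between groups. Rps27l, a p53-responsive paralog, stood at 12.4%, 15.8% and 12.8% of Rps27 in controls and 13.8%, 9.04% and 12.95% in mKO libraries (log2 difference -0.21, exact p = 0.6, adjusted p = 0.72). This difference rested on single libraries, at -0.03 without mKO 2, -0.10 without control 2 and -0.33 without mKO 1. Rpl36al was nearly as abundant as Rpl36a, at 74.7% to 83.1% of it in controls and 76.6% to 83.8% in mKO libraries (log2 difference 0.05, exact p = 0.4, adjusted p = 0.6). Rpl7l1, a nucleolar relative of Rpl7, gave a log2 difference of 0.01 (exact p = 0.9, adjusted p = 0.9). The pseudogene Rps4l gave one of 0.20 relative to Rps4x (exact p = 0.4, adjusted p = 0.6), which was 0.08 without mKO 3, 0.10 without control 3 and 0.32 without control 1 or without mKO 2. With each library left out, the difference was 0.03 to 0.10 for Rpl36al and -0.03 to 0.06 for Rpl7l1.

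**Figure D2:**
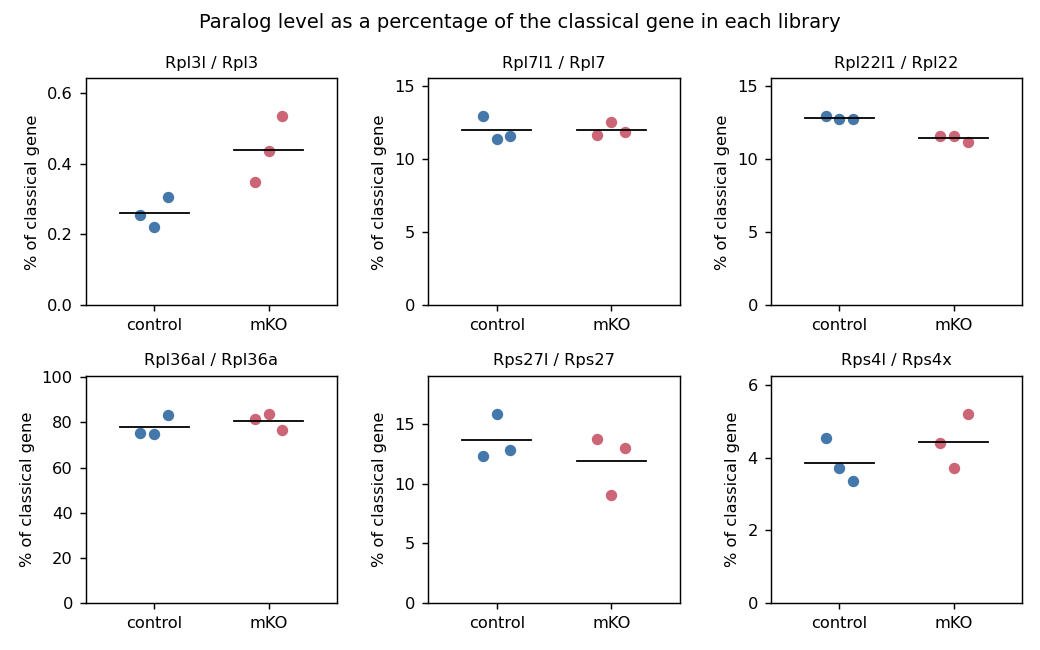
Level of each paralog as a percentage of its classical gene, 1 panel per pair; points are the 3 control (blue) and 3 mKO (red) libraries, the line is the group mean, and each vertical axis starts at 0. The groups do not overlap for Rpl3l over Rpl3, where mKO is higher, and for Rpl22l1 over Rpl22, where mKO is lower, and overlap for the other 4 pairs.

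The members varied together from library to library. Their median deviation from each gene's mean was -0.07, 0.15 and 0.02 on the log2 scale in controls 1 to 3 and 0.17, -0.15 and -0.11 in mKO 1 to 3. The mKO 1 library held the highest value of 51 members and control 2 that of 29, while the lowest value was in mKO 2 for 40 members and in mKO 3 for 29. Across the 6 libraries, which share their scaling, 71 of 86 members had a Pearson correlation above 0.8 with the mean of all members, themselves included. The genes outside the group that ran most alike over the 6 libraries were Gm9794 (r = 0.985), Nop10 (0.985), Atp5g2 (0.984), Atp5j2 (0.984) and the pseudogene Rpl21-ps15 (0.982). Nop10 is a box H/ACA ribonucleoprotein component, and Atp5g2 and Atp5j2 encode subunits of the mitochondrial ATP synthase.

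Other genes, grouped by exon length, also differed from library to library. Exon length here is that of the merged exons of all annotated transcripts of a gene, which can exceed the length of its message. Other genes of up to 1 kb at 10 CPM or more, 386 in number, had median deviations of -0.06, 0.07 and 0.06 in controls and 0.14, -0.06 and -0.10 in mKO libraries. As for the members, mKO 1 and control 2 were highest, but mKO 3 was lowest in place of mKO 2. The 2093 genes over 5 kb had 0.02, -0.08 and -0.05 in controls and -0.08, 0.13 and 0.08 in mKO libraries, lowest in mKO 1 and control 2 and highest in mKO 2. The part of exon length or message length in the shared variation was not tested.

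**Figure D3:**
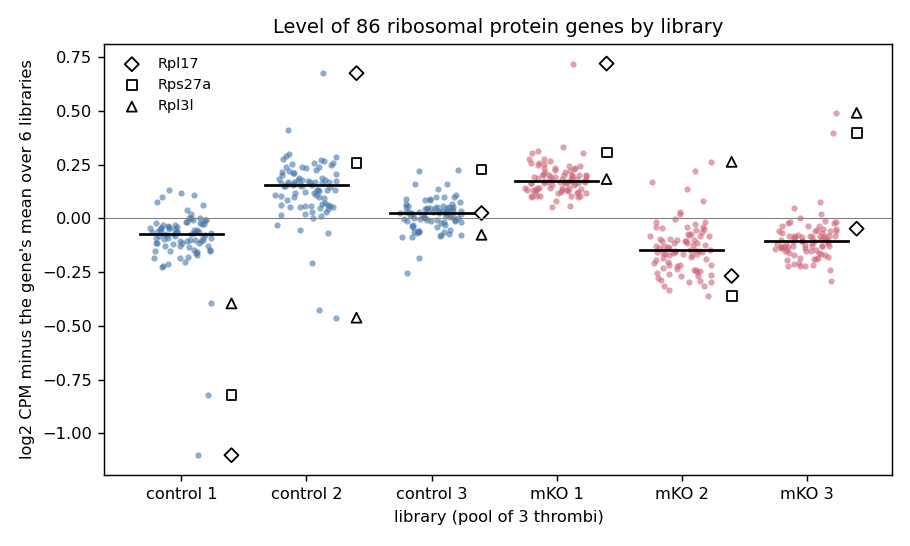
Log2 CPM of each of the 86 genes minus its own mean over the 6 libraries, by library; filled points are genes (blue control, red mKO), black lines the medians, and open symbols repeat Rpl17, Rps27a and Rpl3l. The medians are highest in mKO 1 and control 2 and lowest in mKO 2 and mKO 3, and Rpl17 and Rps27a lie far below the others in control 1.

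A few members left the common course. Relative to the median of all members in each library, the SD over the 6 libraries had a median of 0.07 on the log2 scale. The SD was 0.57 for Rpl17, 0.44 for Rpl3l, 0.43 for Rps27a, 0.33 for Rpl32l and 0.21 for Rps9. Rpl17, a protein at the exit of the nascent peptide tunnel, was chosen for description after its values were seen. It was at 80.5, 276 and 176 CPM in controls and 284, 143 and 167 CPM in mKO libraries, a 3.53-fold range, and its log2 fold change of 0.16 (SE 0.48) was -0.19 without control 1 and 0.63 without control 2.

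Rpl17 has 6 listed pseudogene copies, and 5 of them aligned to its message at 99.3% to 99.7% identity over 555 to 620 bases. The copy Rpl17-ps3 was at 131, 54.1 and 109.8 CPM in controls and 49.9, 72.4 and 117 CPM in mKO libraries. It was highest in control 1, where Rpl17 was lowest, and lowest in mKO 1, where Rpl17 was highest. Rpl17 and its copies together were at 379.9, 455 and 440.0 CPM in controls and 491, 392 and 441 CPM in mKO libraries, a 1.29-fold range. The copies held between 39.4% and 78.8% of this total, and the log2 fold change with copies added to their gene was 0.05.

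Rps27a encodes a fusion of ubiquitin with a 40S protein. It was at 66.5, 140.5 and 138 CPM in controls and 145, 91.6 and 155 CPM in mKO libraries, a 2.33-fold range, with its low values in control 1 and mKO 2. Its copy Rps27a-ps2, 99.8% identical over 467 bases, was at 41.9, 27.7 and 25.3 CPM in controls and 25.01, 34.2 and 11.96 CPM in mKO libraries. The sum with both copies spanned a 1.47-fold range, and the log2 fold change went from 0.18 (SE 0.33) to 0.05. The sources used here do not state how reads that align to several places were counted, so the split between such genes and copies is uncertain.

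**Figure D4:**
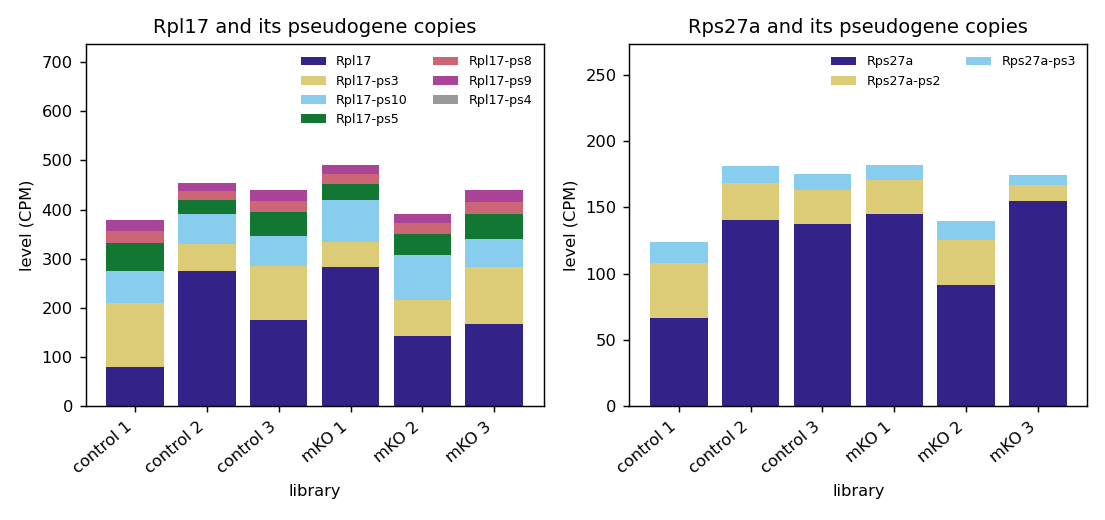
Level in CPM of Rpl17 (left) and Rps27a (right), dark blue, with their listed pseudogene copies stacked on top, in the 3 control and 3 mKO libraries; both axes start at 0. The stacked totals vary less from library to library than the dark blue parts, 1.29-fold against 3.53-fold for Rpl17 and 1.47-fold against 2.33-fold for Rps27a.

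Across all members with copies the totals were not regularly steadier. For 46 members with 114 listed copies, the total varied less over the libraries than the gene alone in 25. The 120 ribosomal protein pseudogenes tested summed to 1293 to 1443 CPM per library, had a median log2 fold change of -0.07 and held no call. Most members annotated as pseudogenes also resemble their parents closely, at 99.5% identity for Rps3a2 and 98.9% for Rps3a3 (against Rps3a1), 98.7% for Rpl6l and 97.5% for Rpl32l. Rps4l does not, at 80.2% identity to Rps4x over 802 aligned bases. Rps3a2 was at 8.28, 8.96 and 7.56 CPM in controls and 8.07, 6.34 and 6.86 CPM in mKO libraries (-0.22, SE 0.14, edgeR adjusted p = 0.539), and reads of Rps3a1 could be among its counts. The paralogs Rpl3l, Rpl22l1 and Rps27l shared 74.8%, 75.9% and 79.8% of aligned bases with their classical genes.

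Genes that build, load or watch over the ribosome were counted in the same fit, and none of the following lists held a gene past an adjusted p of 0.05 in edgeR. Among ribosomal genes outside the symbol rule, Fau, which encodes a ubiquitin-like fusion to a 40S protein, was at 442, 421 and 556 CPM in controls and 531, 554 and 521 CPM in mKO libraries (0.18, SE 0.16). Rpsa, the laminin receptor and 40S protein, gave -0.10 (SE 0.17), and Rack1, a scaffold on the 40S head, -0.06 (SE 0.14). The 78 mitochondrial ribosomal protein genes had a median of -0.07, with 2 genes higher and 5 lower without overlap, where 8.76% of all genes were higher and 9.39% lower in that way. In this list Mrpl43 was at 0.25 (SE 0.12) and Mrpl47 at -0.29 (SE 0.14).

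Ribosome biogenesis genes had lower estimates in mKO, none past an adjusted p of 0.05. Of 89 tested, 74 had a fold change below 0 and 15 above, the median was -0.15, and 12 were lower and none higher at an unadjusted p of 0.05, where 6.26% of all genes were lower and 5.60% higher. The libraries did not overlap for 31 lower and 6 higher genes, against 9.39% and 8.76% of all genes. Nmd3, the export adaptor of the 60S subunit, was at 16.9, 18.2 and 18.3 CPM in controls and 14.8, 13.97 and 13.8 CPM in mKO libraries (-0.33, SE 0.09, edgeR adjusted p = 0.302). Utp3, a component of the small-subunit processome, was at 27.5, 26.1 and 26.3 CPM in controls and 31.2, 28.8 and 31.1 CPM in mKO libraries (0.19, SE 0.09, edgeR adjusted p = 0.454). The summed level of the list was 2212 to 2279.5 CPM in controls and 2051 to 2162 CPM in mKO libraries.

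Dedicated chaperones and importers of ribosomal proteins had a median of -0.13 over 18 genes, 14 of them below 0. Ipo5, an importin that carries ribosomal proteins into the nucleus, was at 61.1, 66.1 and 62.9 CPM in controls and 53.5, 53.4 and 54.7 CPM in mKO libraries (-0.23, SE 0.10, edgeR adjusted p = 0.407). Small nucleolar RNA host genes, whose spliced messages often carry TOP tracts, had a median of -0.27 over 15 gene IDs. All but 1 of these, a second ID under the symbol Snhg4, were below 0. Snhg14 was at 3.13, 5.86 and 1.72 CPM in controls and 1.21, 1.11 and 1.21 CPM in mKO libraries (-1.60, SE 0.42, edgeR adjusted p = 0.272, DESeq2 adjusted p = 0.00979).

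Markers of several cell types had estimates below 0 in mKO beside the biogenesis, chaperone and small nucleolar RNA host lists, none past an adjusted p of 0.05 in edgeR. At that threshold in DESeq2, 3 of 10 endothelial, 3 of 9 adipocyte and 1 of 19 lymphocyte markers passed, all lower in mKO. No smooth muscle or platelet marker did, and 2.79% of all genes did. Fold changes were below 0 for 10 of 10 endothelial markers, with summed levels of 968 to 1105 CPM in controls and 713 to 855 CPM in mKO. They were below 0 for 9 of 9 adipocyte markers, with 946 to 1073 CPM in controls and 648 to 772 CPM in mKO. The summed levels of these 2 marker lists did not overlap between groups. The same sign was found for 10 of 10 smooth muscle markers (1421 to 3401 CPM in controls, 824 to 1707 CPM in mKO). It was also found for 14 of 15 platelet markers (6593 to 9049.5 CPM in controls, 4959 to 7587 CPM in mKO) and 17 of 19 lymphocyte markers (109 to 191 CPM in controls, 115 to 149.6 CPM in mKO), whose summed levels overlapped. The part of these cell types in the 3 lists was not tested.

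Translation factors lay near all genes. The 24 elongation factor and other TOP messages had a median of -0.03, with Eef1d at 0.15 (SE 0.11), and the 38 initiation factors one of -0.02, with Eif5 at 0.29 (SE 0.15) and Eif3h at -0.22 (SE 0.13). The 29 ribosome quality control genes also had a median of -0.02, with Gigyf1 at 0.28 (SE 0.13) and Ascc1 at -0.33 (SE 0.15).

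Regulators upstream of ribosomal protein translation had a few larger estimates in both directions. Over 37 genes of the mTORC1 and LARP1 list the median was 0.01. Rragd, a Rag GTPase that recruits mTORC1 to the lysosome, was at 4.60, 3.98 and 4.62 CPM in controls and 6.35, 7.43 and 7.04 CPM in mKO libraries. All mKO libraries lay above all controls (log2 fold change 0.66, SE 0.14, adjusted p = 0.209 in edgeR and 0.00298 in DESeq2). In the same list Ddit4l, an inhibitor of mTORC1, was at -0.88 (SE 0.26, edgeR adjusted p = 0.310).

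The 22 integrated stress response genes had a median of 0.13, with 15 above 0. Slc7a11, the cystine transporter, was at 76.0, 62.2 and 62.3 CPM in controls and 103, 113 and 91.3 CPM in mKO libraries (0.62, SE 0.14, adjusted p = 0.231 in edgeR and 0.00468 in DESeq2). Eif2ak2, the interferon-induced kinase PKR, was at 32.0, 22.7 and 19.3 CPM in controls and 14.7, 14.2 and 18.4 CPM in mKO libraries (-0.65, SE 0.20, edgeR adjusted p = 0.317). The 16 nucleolar stress and p53 genes had a median of 0.02. Among them Bbc3, a pro-apoptotic p53 target, was at 6.15, 4.47 and 5.98 CPM in controls and 8.37, 9.15 and 9.49 CPM in mKO libraries (0.70, SE 0.15, adjusted p = 0.225 in edgeR and 0.0102 in DESeq2). Phlda3, another p53 target, was at -0.32 (SE 0.11).

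**Figure D5:**
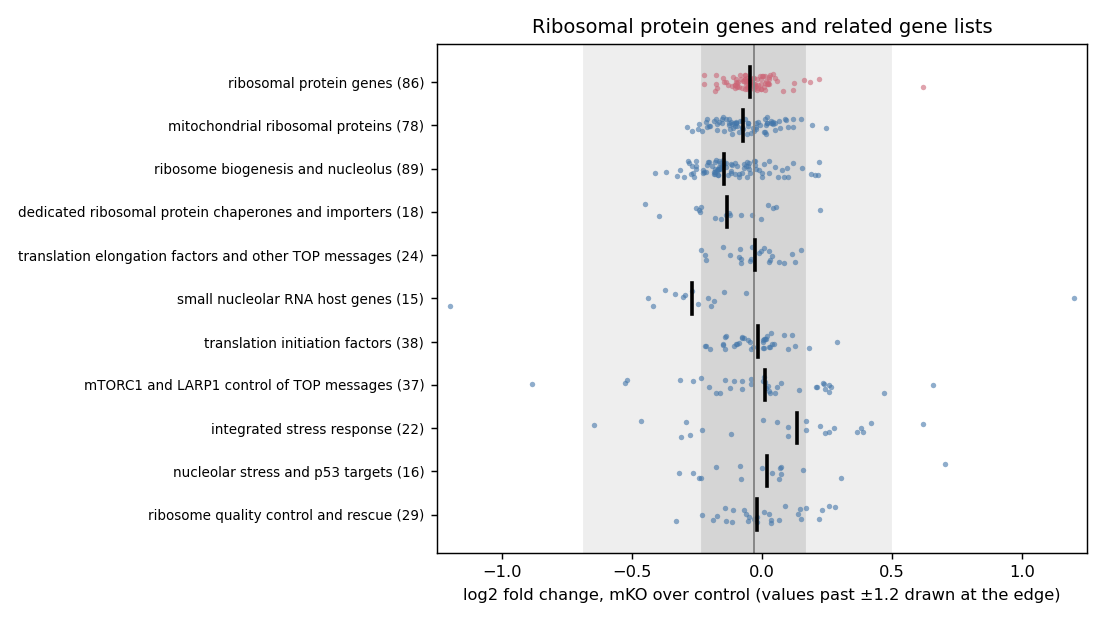
Log2 fold change, mKO over control, of the genes tested in each list (points; number in parentheses) with the list median (black bar); grey bands span the 25th to 75th and the 5th to 95th percentile of all genes tested and the grey line their median. The ribosomal protein genes cluster near 0 with Rpl3l to the right, and the biogenesis, chaperone and small nucleolar RNA host lists have medians of -0.15, -0.13 and -0.27.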

How the data were processed

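Polyadenylated RNA was selected with oligo(dT) and read as 150-base pairs, per the labels' protocols. The authors deposited whole-number counts per gene for 6 libraries (3 control, 3 mKO). The submitters' processing notes name the build GRCm39, featureCounts 2.0.1, HISAT2 2.1.0, FastQC 0.11.8 and Trim Galore 0.4.0. The sources used here do not state the annotation, the strand setting or the treatment of multi-mapped reads. Oligo(dT) selection and multi-mapped reads bear on short messages with many copies.

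All 16523 genes passing filterByExpr were fitted in edgeR 4.0.16 (R 4.3.3) with TMM factors and the quasi-likelihood test, mKO against control, and p-values were adjusted by Benjamini-Hochberg over all of them. CPM use TMM-scaled totals. Labels do not say that pools came from separate experiments, so p-values measure the spread between pools, which may be partly technical. The edgeR fit was also run on simulated counts, with set changes larger than any estimated for the members. The simulated counts held no variation shared between genes, so that run does not bear on changes as small as those of the members. DESeq2 1.42.0, limma voom 3.58.1, other scalings, filters and left-out libraries were alternatives. Lengths, overlaps and copy identity used GENCODE M21 (16490 IDs matched, all 86 members). Adding pseudogene copies to their gene was chosen after the data were seen.

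Members and lists were chosen with earlier results of these data known. Named were the 10 members with the highest CPM, the 8 higher and 8 lower with the smallest p, the paralog pairs and the P stalk; in other lists, 1 gene in each direction; and the 5 most alike genes. Other members named (Rpl17, Rpl5, Rpl11, Rps3a3) were added after their values were seen. A few items are not reported here.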

Additional observations from a re-analysis of the deposited data

How the results depend on the processing

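No ribosomal protein gene was called in either direction under any alternative run (other scalings, totals without haemoglobin, immunoglobulin and mitochondrial genes, factors without the ribosomal proteins, other filters, DESeq2, limma voom, left-out libraries, pseudogene copies added to their gene). Over all genes, 0 calls became 461 with DESeq2; leaving out each library in turn gave 0 to 7 calls, with 7 without control 1, 2 without control 3 and 4 without mKO 3, and the cause was not tested. The median log2 fold change of the members ranged from -0.14 to 0.02 and that of all genes was -0.08 at the lowest. For 39 named members, 54 of 660 alternative values had the other sign, in 19 genes whose main change was at most 0.18. Rpl6l moved by more than its SE, to -0.29 without mKO 1. Same-numbered libraries did not deviate together (correlations -0.14, -0.15 and -0.27). With 3 libraries a group, centred on their group mean, these correlations cannot show whether the numbers pair the libraries. With the replicate block 0 genes were called and the member median was -0.05. With 3 pools a group, smaller changes than the intervals allow were not detectable.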
